A study of Mus musculus with 8 samples.

Results

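The transcripts of 10 histone deacetylase genes, Hdac1 to Hdac9 and Hdac11, were examined among the 22063 genes of an RNA-seq table. They were chosen by symbol because Hdac9 was low in the tranilast libraries, so the comparison of tranilast with control had itself been used to choose them and is described here without a test. The study asked how tranilast, an anti-allergic drug given by mouth, acts on fatty liver inflammation in mice fed a high-fat, high-cholesterol (HFHC) diet. Poly-A enriched libraries were made from 4 samples labelled as control and 4 labelled as control with tranilast, and every sample was labelled as WT liver. The HFHC diet, common to both groups, is given by the series design rather than by the sample labels. The study's methods describe male C57BL/6J mice treated with tranilast or its vehicle during the last weeks of the diet. Neither the age and the dose of the sequenced mice nor the separate origin of the replicates is named in the labels, so the errors below measure the spread between these samples, which may be technical in part.

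Reads per gene added up to 14585153 to 15618787 counts per control library and 12053036 to 14679386 counts per tranilast library. The libraries were checked against markers of the labelled tissue, in CPM, which is a count scaled to the library total. The 9 hepatocyte markers summed to at most 1.91 CPM in any library, 3 of them were at 0 in all 8, and Alb, which encodes albumin, reached 2 counts at most. The 8 macrophage markers summed to 9057 to 9599 CPM with control and 8840 to 9427 CPM with tranilast, led by Lyz2 (lysozyme) and Csf1r (the receptor of macrophage colony-stimulating factor), while Mertk had at most 1 count. Of 4 Kupffer cell markers, Clec4f, Vsig4 and Timd4 were at 0 in all libraries. The defining markers of hepatocytes were therefore absent from libraries labelled as liver, and the values below are those of the libraries as labelled. The 8 proliferation markers summed to 3389 to 3584 CPM with control and 1796 to 1868 CPM with tranilast, and their part in the values below was not tested. In such bulk samples, fewer cells of a type and less RNA per cell cannot be told apart.

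Histone deacetylases remove acetyl groups from lysines of histones and of other proteins. The class I enzymes Hdac1, Hdac2, Hdac3 and Hdac8 are mostly nuclear, and Hdac1, Hdac2 and Hdac3 work inside large corepressor complexes. The class IIa enzymes Hdac4, Hdac5, Hdac7 and Hdac9 have weak catalytic activity of their own. They bind transcription factors of the MEF2 family, shuttle between nucleus and cytoplasm, and leave the nucleus when kinases phosphorylate them and 14-3-3 proteins bind the phosphorylated sites. Hdac6 of class IIb deacetylates tubulin in the cytoplasm, and Hdac11 is the member of class IV. In macrophages, members of both classes are known to shape inflammatory gene expression.

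The promoters of Hdac9, Hdac4 and Hdac5 are shown because these class IIa transcripts differed in size or direction between the groups, with Hdac9 and Hdac5 lower and Hdac4 higher with tranilast. The windows hold the 250 bases before each annotated start, 5′ to 3′ on the strand of the gene, from RefSeq on GRCm38.p6. The set of windows used here held 8 of the 10 members and lacked Hdac1 and Hdac3. Capitals mark matches to a GC box (GGGCGG, bound by Sp factors) or to a MEF2 site. The MEF2 site was searched as CTAWWWWTAR, where W is A or T and R is A or G. Both strands were searched, also for an E-box (CACGTG) and a cyclic AMP response element (TGACGTCA). Hdac9 has a distal start, with its window at chr12:34917096-34917345 on the minus strand, and a proximal start within the span of the gene, with its window at chr12:34528890-34529139. Hdac4 has its window at chr1:92180342-92180591 and Hdac5 at chr11:102230173-102230422, both on the minus strand.
Hdac9, distal start: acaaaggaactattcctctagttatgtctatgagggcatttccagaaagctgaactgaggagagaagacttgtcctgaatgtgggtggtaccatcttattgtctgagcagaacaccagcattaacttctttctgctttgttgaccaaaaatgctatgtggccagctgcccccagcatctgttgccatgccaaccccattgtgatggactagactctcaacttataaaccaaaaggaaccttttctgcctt
Hdac9, proximal start: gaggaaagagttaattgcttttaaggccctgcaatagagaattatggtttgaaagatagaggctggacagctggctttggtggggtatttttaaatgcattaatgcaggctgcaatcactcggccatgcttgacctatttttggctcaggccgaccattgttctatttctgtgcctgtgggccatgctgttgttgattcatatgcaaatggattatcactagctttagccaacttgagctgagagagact
Hdac4: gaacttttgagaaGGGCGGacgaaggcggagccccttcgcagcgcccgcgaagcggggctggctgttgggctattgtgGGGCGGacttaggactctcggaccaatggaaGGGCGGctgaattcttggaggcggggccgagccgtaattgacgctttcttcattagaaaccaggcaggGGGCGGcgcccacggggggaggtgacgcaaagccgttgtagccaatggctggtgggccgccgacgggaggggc
Hdac5: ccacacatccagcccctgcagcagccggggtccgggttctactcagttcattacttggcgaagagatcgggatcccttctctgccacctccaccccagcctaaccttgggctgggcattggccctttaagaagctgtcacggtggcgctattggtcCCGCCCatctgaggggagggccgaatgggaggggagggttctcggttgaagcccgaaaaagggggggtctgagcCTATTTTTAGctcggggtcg

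Neither Hdac9 window held a match to any of the 4 motifs, which says only that these letters are not in these windows. The proximal Hdac9 window does hold TATTTTTA, the inner part of the MEF2 pattern, after a G where the pattern has C. Such near matches were not counted in any window. The Hdac4 window held 4 GC boxes, and the Hdac5 window held 1 GC box and 1 match to the MEF2 site, which began at position -20 from the start. Among 32851 promoter windows of the same length, 32.7% held a GC box, 6.02% an E-box, 1.55% a cyclic AMP response element and 1.69% a MEF2 site. CpG dinucleotides numbered 0 in the distal and 2 in the proximal Hdac9 window, 23 in the Hdac4 window and 12 in the Hdac5 window, where the median of all windows was 6. The GC content was 44.4% and 43.6% in the Hdac9 windows, 65.2% for Hdac4 and 60.8% for Hdac5, against a median of 52.4%. Both Hdac9 windows were thus poorer in CpG and in GC than the median window, and those of Hdac4 and Hdac5 were richer.

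Hdac9 (ENSMUSG00000004698) was lower in every tranilast library than in any control library. The gene covers chr12:34047580-34917095 on the minus strand of GRCm38, a span of 869.5 kb, and GENCODE M21 lists 10 transcripts for it, from 753 to 7940 bases. The estimated counts were 500, 488, 473 and 494 in control replicates 1 to 4 and 143, 140, 188 and 199 in tranilast replicates 1 to 4. Scaled by the trimmed mean of M values (TMM), they were 35.6, 33.9, 31.6 and 34.5 CPM in the control group and 10.2, 10.1, 15.01 and 13.0 CPM in the tranilast group. The controls thus lay close together, and tranilast replicates 3 and 4 lay above replicates 1 and 2.

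The Hdac9 level averaged 33.9 ± 1.66 CPM across the control replicates against 12.1 ± 2.38 CPM with tranilast (SD, n = 4 each). The log2 fold change of tranilast over control was -1.49 (standard error 0.10), a level 0.356 times that of the control. It ranked 53 from the lowest of the 10770 genes tested, whose median absolute log2 fold change was 0.21. The coefficient of variation of Hdac9 was 4.91% in the control group, where counting error alone would give 4.52%, and 19.7% in the tranilast group, where counting error alone would give 7.73%. Across 18 alternative settings the log2 fold change lay between -1.60 and -1.18, and leaving out each sample in turn gave -1.60 to -1.42.

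**Figure D1:**
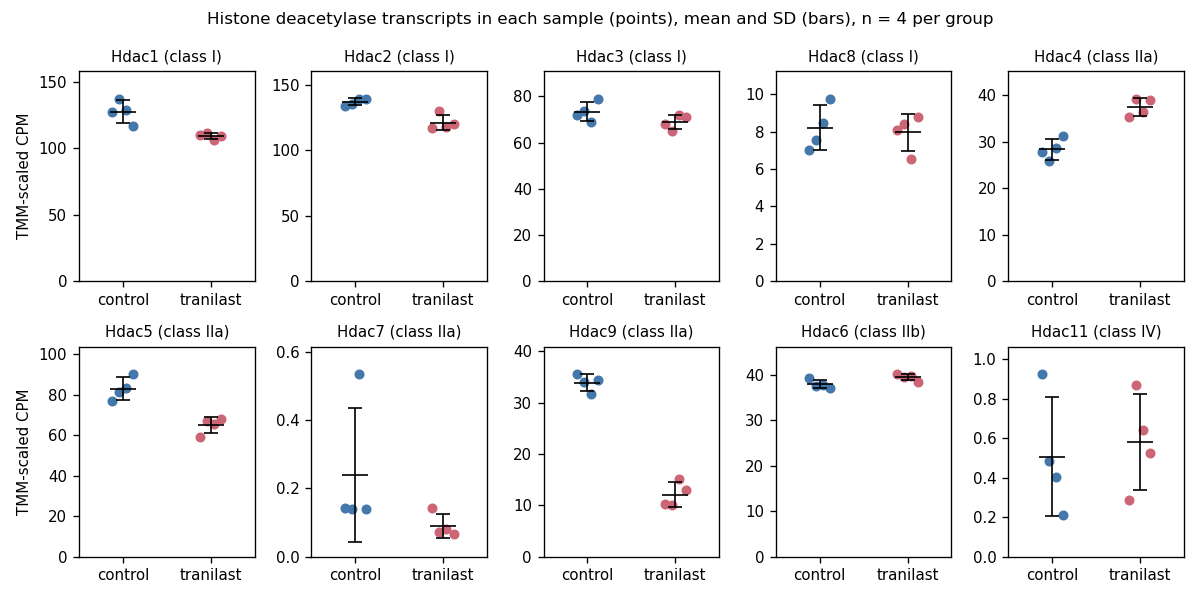
TMM-scaled CPM (vertical axes from 0, each gene on its own scale) of the 10 histone deacetylases in the 4 control and 4 tranilast samples; points are samples, the long bar is the mean and the whiskers are the SD. The Hdac9 samples sit between 31.6 and 35.6 CPM in the control group and between 10.1 and 15.01 CPM in the tranilast group, while Hdac4 is higher and Hdac5, Hdac1 and Hdac2 are lower in every tranilast sample than in any control sample.

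Hdac4 and Hdac5 differed less between the groups, and Hdac4 in the other direction. Hdac4 (ENSMUSG00000026313), a corepressor of MEF2 factors known from cartilage and muscle, was at 27.7, 25.8, 28.5 and 31.1 CPM in control replicates 1 to 4 and at 35.4, 39.2, 36.3 and 39.0 CPM in tranilast replicates 1 to 4 on the TMM scale. It was the only tested member that was higher on this scale in every tranilast sample than in any control sample, and in FPKM its groups overlapped, with up to 8.65 in the control and from 7.91 in the tranilast replicates. Hdac4 averaged 28.3 ± 2.22 CPM across the control replicates against 37.5 ± 1.92 CPM with tranilast (SD, n = 4 each), and the log2 fold change was 0.41 (standard error 0.067).

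Hdac5 (ENSMUSG00000008855), a close relative of Hdac4 and also a MEF2 corepressor, had the highest FPKM of class IIa. It was at 77.0, 81.4, 83.4 and 90.3 CPM in the control replicates and at 59.2, 66.9, 65.5 and 67.9 CPM in the tranilast replicates on the TMM scale, without overlap. Its mean was 83.0 ± 5.56 against 64.9 ± 3.90 CPM (SD, n = 4 each), and the log2 fold change was -0.36 (standard error 0.054). Hdac7, known from endothelium and thymocytes, was close to absent. It had 2, 2, 8 and 2 counts in the control libraries and 2, 1, 1 and 1 in the tranilast libraries, against a limit of 3 counts that a count of 0 allows, and no fold change is given. Its locus overlaps Slc48a1 on the opposite strand, and the strand setting of the counting is not given in the sources used here.

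Among the class I genes, Hdac1 and Hdac2, the paired catalytic subunits of the Sin3, NuRD and CoREST complexes, were both slightly lower with tranilast. Hdac1 (ENSMUSG00000028800) was at 127.1, 137.3, 128.4 and 116.3 CPM in the control replicates and at 110.1, 111.3, 106.5 and 109.2 CPM in the tranilast replicates on the TMM scale. Hdac2 (ENSMUSG00000019777) was at 134.1, 134.9, 139.0 and 139.4 CPM in the control replicates and at 117.2, 130.0, 117.5 and 119.6 CPM in the tranilast replicates. In neither gene did the groups overlap on this scale, although Hdac1 in control replicate 4 and Hdac2 in tranilast replicate 2 lay close to the other group. In FPKM the groups overlapped in both genes. Hdac1 went down to 54.9 FPKM in the control and up to 57.0 in the tranilast replicates. Hdac2 went down to 64.1 FPKM in the control and up to 67.3 in the tranilast replicates. The log2 fold change was -0.22 (standard error 0.045) for Hdac1 and -0.18 (standard error 0.039) for Hdac2. Scaling by library size alone moved these to -0.10 and -0.06, and neither then met the rule for calling a gene. The ratio of the pair did not separate the groups, with 93.1 ± 7.55 Hdac1 counts per 100 Hdac2 counts with control and 90.4 ± 3.45 with tranilast (SD, n = 4 each).

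Hdac3 (ENSMUSG00000024454), the catalytic subunit of the NCoR complex, overlapped between the groups, with 68.9 to 79.1 CPM in the control and 64.9 to 72.0 CPM in the tranilast replicates on the TMM scale. Its log2 fold change was -0.09, with an interval of 2 standard errors each way from -0.19 to 0.01, and it turned to 0.03 with library size alone. Hdac8 (ENSMUSG00000067567), which deacetylates the cohesin subunit Smc3, was at 7.04 to 9.77 CPM in the control and at 6.55 to 8.81 CPM in the tranilast replicates. Its log2 fold change was -0.04 with an interval from -0.31 to 0.23, and its sign was opposite in 6 of 18 alternatives. For these members the direction was therefore not fixed by the data.

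Outside these classes, Hdac6 (ENSMUSG00000031161) was at 37.2 to 39.3 CPM in the control and at 38.5 to 40.2 CPM in the tranilast replicates on the TMM scale. Its log2 fold change was 0.06, with an interval from -0.04 to 0.16, and in the deposited FPKM, which is scaled for transcript length as well as depth and where the groups did not overlap, it was higher with tranilast, at 10.4 ± 0.386 (SD, n = 4) against 9.09 ± 0.306 (SD, n = 4). Hdac11, with 3 to 13 counts per control library and 4 to 12 per tranilast library, had too few for a comparison at this depth. Hdac10, the remaining class IIb gene and not chosen as a member, was at 14.8 ± 1.75 CPM with control and 16.3 ± 1.11 CPM with tranilast (SD, n = 4 each), and its log2 fold change of 0.14 did not pass the quasi-likelihood test of edgeR, adjusted after Benjamini and Hochberg over all genes tested (adjusted p = 0.23). With library size alone it was 0.26 and with FPKM 0.22 or 0.26, and it then passed the test.

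Of the 10 members, 8 passed the filter on low counts, and Hdac7 and Hdac11 did not. A gene was called at an adjusted p under 0.05 in the same test across all 10770 genes, by which 57% of the genes were called, 28.2% higher and 28.8% lower with tranilast. By that rule 5 of the 8 members were called, Hdac4 as higher and Hdac1, Hdac2, Hdac5 and Hdac9 as lower, and nothing is read from this count, since the comparison had served to choose them. In TMM-scaled CPM the groups did not overlap in the same 5 members, against 49.8% of all genes tested. In class I, 2 of 4 members were called, both lower, and the median log2 fold change was -0.13. In class IIa, all 3 members tested were called, 1 higher and 2 lower, and the log2 fold changes ran from -1.49 to 0.41. The lowest was that of Hdac9, whose low value had served to choose the members, so the spread of the classes is not compared. Hdac5 and Hdac4 lay at -0.36 and 0.41.

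**Figure D2:**
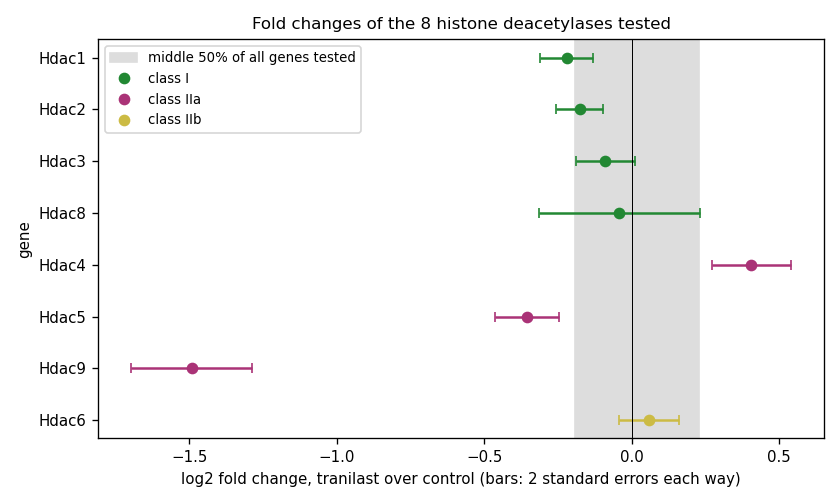
Log2 fold change of tranilast over control (horizontal axis) for the 8 members tested (vertical axis), coloured by class, with bars of 2 standard errors each way and the middle 50% of all genes tested as a grey band. The class I genes and Hdac6 lie between -0.22 and 0.06, Hdac4 lies at 0.41 and Hdac5 at -0.36, and Hdac9 stands far to the left at -1.49.

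The direction of small differences rested on the scaling of the libraries. The median log2 fold change of all genes tested was 0.01 with TMM factors and 0.12 with library size alone, and of the genes called 49.5% were higher with tranilast under TMM, 62.6% under upper-quartile factors, 70.4% or 70.5% in the deposited FPKM and 70.9% under library size alone. With library size alone or with FPKM, 4 members were called, Hdac4 and Hdac6 as higher and Hdac5 and Hdac9 as lower.

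Ratios within a library do not depend on the scaling, but those to class I also carry any difference in class I itself. The class I sum was 345.8 CPM with control and 307.3 CPM with tranilast on the TMM scale, and overlapped between the groups in FPKM. There were 10.4, 9.59, 9.17 and 10.01 Hdac9 counts per 100 class I counts in control replicates 1 to 4 and 3.35, 3.22, 4.96 and 4.21 in tranilast replicates 1 to 4. For Hdac4 the ratio was 8.19 ± 0.714 with control and 12.2 ± 0.442 with tranilast, and for Hdac5 it was 24.0 ± 1.61 against 21.1 ± 1.11 (SD, n = 4 each). None of these count ratios overlapped between the groups, whereas in FPKM the ratio of Hdac4 to class I did, at 3.89 to 5.26 per 100 with control and 5.10 to 6.34 with tranilast. Hdac9 was at 120.3 ± 11.1 counts per 100 Hdac4 counts with control and at 32.3 ± 6.76 with tranilast (SD, n = 4 each), a ratio of counts not divided by length.

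**Figure D3:**
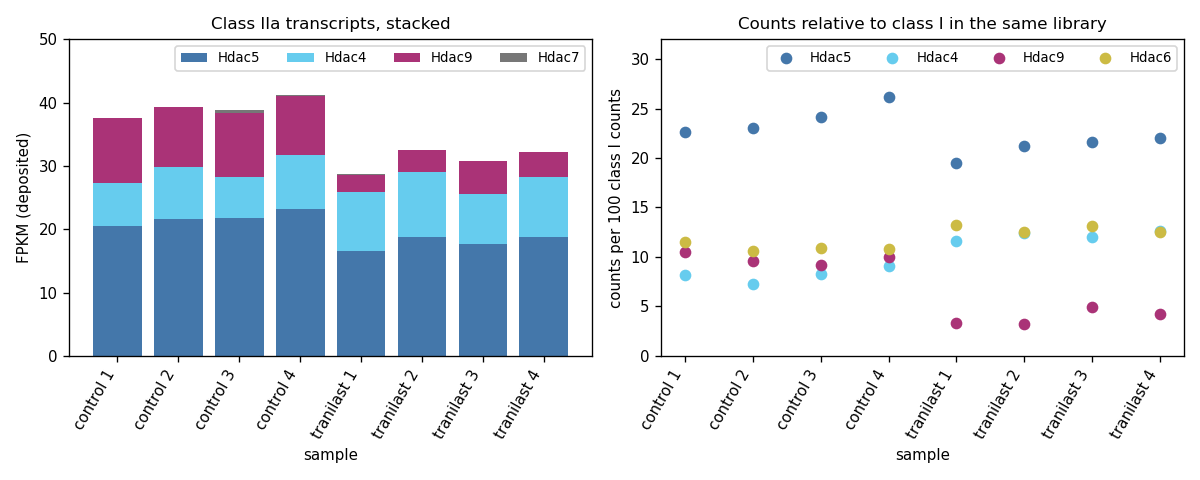
Left, deposited FPKM of Hdac5, Hdac4, Hdac9 and Hdac7 stacked for each of the 8 samples; right, counts of Hdac5, Hdac4, Hdac9 and Hdac6 per 100 class I counts in the same library, 1 point per gene and sample. The Hdac9 points lie between 9.17 and 10.4 in the control samples and between 3.22 and 4.96 in the tranilast samples, and the Hdac4 points lie above them in the tranilast samples only.

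Levels of different genes were ranked per length, on the deposited FPKM. In the control group Hdac2 (65.2 ± 1.32 FPKM, SD, n = 4) and Hdac1 (59.9 ± 3.89 FPKM) stood first, with overlapping ranges, followed by Hdac3 (35.4 ± 2.20 FPKM) and Hdac5 (21.8 ± 1.08 FPKM). Hdac9 was the fifth (9.79 ± 0.466 FPKM), and its range overlapped that of Hdac6 behind it. Hdac4 (7.48 ± 1.07 FPKM) and Hdac8 (4.12 ± 0.616 FPKM) came next, and Hdac11 and Hdac7 were at 0.204 ± 0.0887 and 0.200 ± 0.215 FPKM. In the tranilast group the first 4 places were the same, and Hdac9 stood behind Hdac6, Hdac4 and Hdac8 at 3.86 ± 1.06 FPKM (SD, n = 4), with a range that overlapped that of Hdac8 (4.28 ± 0.539 FPKM). The order depended on the length used. In CPM per kb of all annotated exons, Hdac1 (35.5) stood before Hdac2 (29.4) in the control group, and Hdac6 (6.26) stood before Hdac9 (2.22).

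Summed by class, the class I transcripts were at 164.7 ± 2.66 FPKM with control and at 158.6 ± 3.19 FPKM with tranilast (SD, n = 4 each), and the groups overlapped. In TMM-scaled CPM, the same class I sum was 345.8 ± 5.52 with control and 307.3 ± 5.58 with tranilast (SD, n = 4 each), without overlap. The class IIa sum was 39.3 ± 1.51 against 31.1 ± 1.76 FPKM (SD, n = 4 each), without overlap. Without Hdac9 the class IIa sum overlapped between the groups, at 29.5 ± 1.94 against 27.2 ± 1.74 FPKM (SD, n = 4 each). Per 100 FPKM of class I there were 23.8 ± 0.849 FPKM of class IIa in the control group and 19.6 ± 0.893 in the tranilast group (SD, n = 4 each). Within class IIa, Hdac9 made up 25.0 ± 2.08 of every 100 FPKM in the control group and 12.4 ± 3.31 in the tranilast group, Hdac4 made up 19.0 ± 2.15 and 29.8 ± 3.09, and Hdac5 made up 55.5 ± 0.810 and 57.7 ± 0.584. The shares within class IIa thus differed mainly in Hdac9 and Hdac4, and as parts of the same sum they are not independent. In FPKM itself, Hdac5 was at 21.8 with control and 17.9 with tranilast, and Hdac4 at 7.48 and 9.25 with overlapping groups.

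The FPKM values also carry a transcript length, since the CPM of the library total divided by the FPKM gives the length in kb that the authors' normalisation had used. For Hdac1 this length was 2.04 kb in every sample, and the longest Hdac1 transcript of GENCODE M21 has 2038 bases. For Hdac9 it ran from 2.95 to 3.79 kb, with a mean of 3.33 ± 0.243 kb with control and 3.32 ± 0.400 kb with tranilast (SD, n = 4 each). For Hdac4 it ran from 3.04 to 4.77 kb, at 3.68 ± 0.546 kb against 4.24 ± 0.391 kb (SD, n = 4 each), and the groups overlapped in both genes. The coefficient of variation over the 8 samples was 9.22% for Hdac9 and 13.4% for Hdac4, where the median over the genes tested was 1.44%. The implied length therefore varied between samples more for Hdac9 and Hdac4 than for most genes, without separating the groups.

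**Figure D4:**
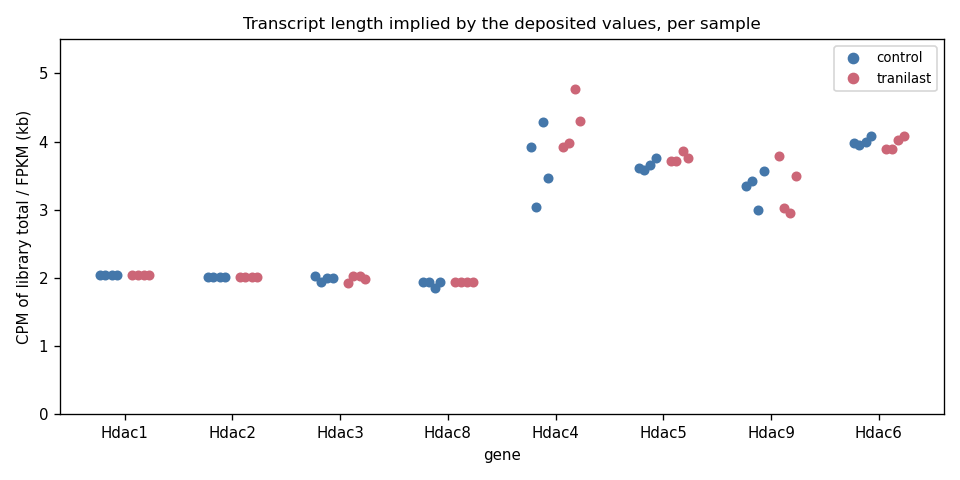
Transcript length implied by the deposited values (CPM of the library total divided by FPKM, in kb, vertical axis from 0) for the 8 members tested, with 4 control and 4 tranilast samples per gene as points. Hdac1 and Hdac2 lie near 2.04 and 2.02 kb in every sample, while Hdac9 spreads from 2.95 to 3.79 kb and Hdac4 from 3.04 to 4.77 kb in overlapping groups.

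With the length included, the Hdac9 levels were 10.3, 9.49, 10.1 and 9.31 FPKM in the control replicates and 2.78, 3.49, 5.29 and 3.87 FPKM in the tranilast replicates. The log2 ratio of the mean FPKM was -1.34 for Hdac9, 0.31 for Hdac4 and -0.28 for Hdac5. The transcripts annotated for Hdac9 range from Hdac9-204, with 1067 coding codons, to forms that end before the catalytic domain of the full-length protein, such as Hdac9-201 with 588 coding codons. The table gives values per gene, so the forms were not told apart here.

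The genes whose log2 CPM followed Hdac9 most closely over the 8 samples were Phf19, a subunit of Polycomb repressive complex 2 (Pearson r 0.996), Pafah1b2, a subunit of platelet-activating factor acetylhydrolase (0.996), Safb, which binds scaffold-attached DNA (0.995), Dhx9, an RNA helicase (0.994), and Nuf2, a kinetochore protein (0.992). All 5 were lower in the tranilast group, by log2 fold changes of -0.95 for Nuf2, -0.55 for Safb and -0.37 to -0.39 for the others, each smaller in size than that of Hdac9. The samples share their group, and 1501 of the genes tested had an r of at least 0.9 with Hdac9, so that this likeness is a description of these 8 samples.

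The partners of the histone deacetylases were read from the same fit, in lists written from textbook knowledge. Of 89 partner genes, 84 were tested, and 14 rose and 43 fell at an adjusted p under 0.05 in that edgeR test, with a median log2 fold change of -0.11. This was 67.9% of the partners, beside 57% of all genes tested. Under library size alone, 27 rose and 28 fell.

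**Figure D5:**
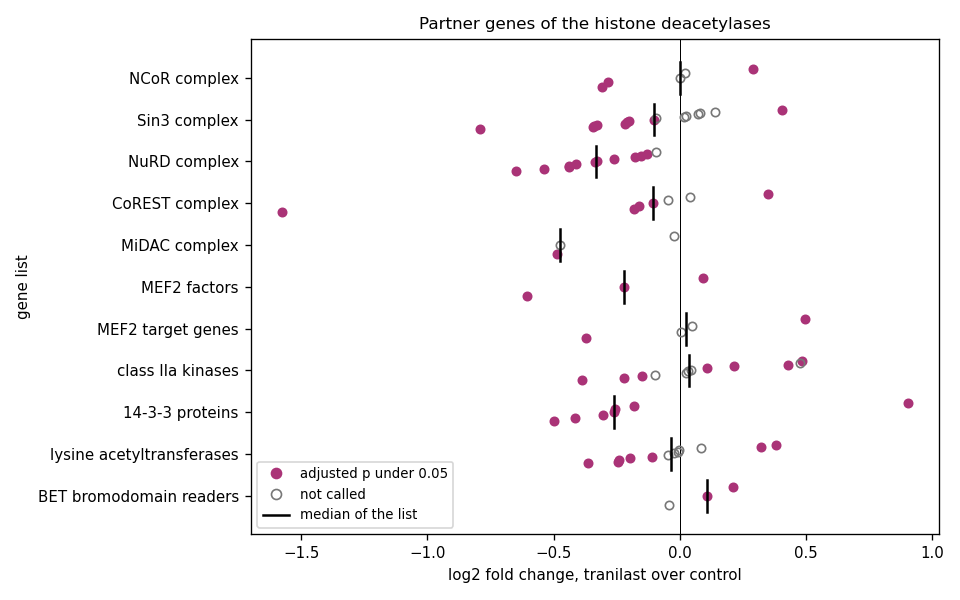
Log2 fold change of tranilast over control (horizontal axis) of the tested partner genes, 1 row per list; filled points passed the test at an adjusted p under 0.05, open points did not, and black bars are the medians of the lists. The NuRD median lies at -0.33 with 11 of 12 genes called as lower, and Rcor2 of the CoREST list stands alone at -1.58.

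The nucleosome remodelling complex NuRD, which carries Hdac1 and Hdac2, moved mostly in a single direction. Of its 12 genes, 11 fell, none rose, and Mta3 did not pass the test, with a list median of -0.33. Cdk2ap1, a small subunit, was at 217.8 to 236.0 CPM in the control and at 141.2 to 152.9 CPM in the tranilast replicates, and its log2 fold change was -0.65 ± 0.036 (SE; adjusted p = 4.3e-11 from edgeR). Chd3, a remodelling ATPase, fell by 0.54 on the log2 scale, and Rbbp7, a histone chaperone, and Mbd2, which binds methylated DNA, each fell by 0.44. Scaled by library size alone, 8 of the 12 still fell and none rose.

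In the Sin3 complex, also built on Hdac1 and Hdac2, 1 gene rose and 8 fell of 15, with a median of -0.10. Sap30, a Sin3-associated subunit, went from 130.8 ± 10.7 CPM to 75.7 ± 9.02 CPM (SD, n = 4 each), a log2 fold change of -0.79 (adjusted p = 2.5e-08 from edgeR). Sap18 fell by 0.34, as did Ing1, which reads methylated histone H3, and Brms1l rose by 0.41. When library size alone was used, 5 of the Sin3 genes rose and 4 fell, so the balance of this list rested on the scaling.

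In the CoREST complex, which joins Hdac1 and Hdac2 to the demethylase Kdm1a, 1 gene rose and 4 fell of 7, and 1 rose and 1 fell with library size alone or with FPKM. Rcor2, a CoREST scaffold, was at 28.5, 29.9, 31.9 and 33.0 CPM in the control replicates and at 10.9, 9.55, 12.4 and 8.68 CPM in the tranilast replicates. Its log2 fold change, -1.58 ± 0.098 (SE; adjusted p = 1.9e-10 from edgeR), was near that of Hdac9 in size. Its paralog Rcor1 fell by 0.18 and Hmg20b rose by 0.35. Phf21a, which reads unmethylated histone H3, fell by 0.16 with TMM (adjusted p = 0.042 from edgeR), kept its call in 7 of 18 alternatives and had a log2 fold change of 0.03 with FPKM. In the MiDAC complex Mideas, a scaffold, fell by 0.49 (adjusted p = 3.5e-09 from edgeR), while Dnttip1 (-0.02) and Trerf1 (-0.47, standard error 0.37) did not pass the test.

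The NCoR complex is the home of Hdac3, and class IIa enzymes bind it. The level of its scaffold Ncor1 was 336.2 ± 6.34 against 336.3 ± 3.03 CPM (SD, n = 4 each), and its log2 fold change of 0.00 (standard error 0.027) did not pass the test with TMM. The Ncor1 log2 fold change was 0.12 with library size alone and reached 0.16 among the alternatives. Ncor1 passed the test as higher in 4 of 18 alternatives, library size alone among them. The subunit Tbl1x fell by 0.31 (adjusted p = 5.2e-07 from edgeR), Tbl1xr1 fell by 0.28 with TMM but had a log2 fold change of 0.08 or 0.07 with FPKM, and Gps2 rose by 0.29 (adjusted p = 0.00081 from edgeR).

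The MEF2 factors, through which class IIa enzymes act on genes, moved unequally. Mef2c went from 360.1 ± 9.03 CPM to 236.8 ± 6.46 CPM (SD, n = 4 each), and the log2 fold change was -0.60 ± 0.030 (SE; adjusted p = 1e-11 from edgeR). Mef2d fell by 0.22, Mef2a rose by 0.09 (adjusted p = 0.017 from edgeR) but did not pass without control replicate 2, and Mef2b, between 0.139 and 0.783 CPM, was too low to be tested. Of 4 genes known as MEF2 targets in other tissues, Nr4a1, an orphan nuclear receptor, rose by 0.50 (adjusted p = 0.0067 from edgeR), and Klf2 fell by 0.37 (adjusted p = 0.011 from edgeR) but did not pass the test with library size alone, with FPKM or without control replicate 3. Klf4 (0.05) and Jun (0.00) did not pass.

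Among 12 tested kinases of class IIa enzymes, 4 rose and 3 fell, and 7 rose and 2 fell with library size alone. Prkd2, a protein kinase D, rose by 0.49 (adjusted p = 0.00018 from edgeR) and Sik2, a salt-inducible kinase, by 0.43, whereas Sik3 fell by 0.39 and Mark2 by 0.22. Of the 7 genes of 14-3-3 proteins, which hold phosphorylated class IIa enzymes in the cytoplasm, 6 fell and 1 rose. Ywhah fell by 0.50, Ywhaz by 0.42 and Ywhae by 0.30 (adjusted p = 1.9e-11, 1.1e-10 and 1.3e-08 from edgeR), and Sfn rose by 0.90 (adjusted p = 0.0084 from edgeR) from a low level of 1.11 ± 0.210 CPM to 2.08 ± 0.352 CPM (SD, n = 4 each). Of the 14-3-3 genes, 5 fell and 1 rose with library size alone.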

How the data were processed

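RNA-seq was examined for 4 control and 4 tranilast samples, grouped by the treatment in their labels. The authors deposited an estimated count and an FPKM value per gene and sample. The aligner, counting tool, strand setting and genome build are not given in the sources used here. The methods name the HiSeq X-ten platform and the labels a NovaSeq. Of the values of a sample, 92.7% to 93.9% were whole numbers, and the counts were rounded. The depth allows 3 counts, or 0.192 to 0.249 CPM, for a count of 0, counting error only. The members and lists were chosen with earlier results of these data known. Genes were named when they were members or Hdac10, in partner lists of 5 or fewer genes, among the up to 4 called genes with the largest absolute log2 fold change of longer lists, among the 5 with the highest correlation with Hdac9, or tissue markers.

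Genes passing filterByExpr were compared in edgeR 4.0.16 (R 4.3.3) by its quasi-likelihood test with TMM factors, and p-values were adjusted after Benjamini and Hochberg over 10770 genes. The study's methods name limma, and limma-voom 3.58.1 was run as an alternative. The others were DESeq2 1.42.0, RLE and upper-quartile factors, library size alone, no filter, at least 10 counts in every sample, limma on log2 FPKM with 1 or 0.1 added, the replicate number as a block, and each sample left out. Correlations used log2 CPM with 0.1 added. Tested on simulated counts for 10726 genes, 200 of them with a log2 change of 1, edgeR recovered 200 and made 8 false calls. These changes were equal in number up and down, with the same dispersion for every gene, and far fewer than the 57% called here. The simulation therefore does not bear on the scaling of the libraries. Ensembl identifiers were matched to GENCODE M21 (GRCm38) for coordinates, and promoter windows come from RefSeq (GRCm38.p6). Tables were handled in Python 3.11.15 with numpy 2.4.6 and pandas 2.3.3. The columns of annotation and the raw reads were not analysed here, and some partner genes are not reported here.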

Additional observations from a re-analysis of the deposited data

Results flagged for a closer look

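The highest and the lowest sample of each group of 4 were compared with their neighbours in 108 groups of the genes on the lists by Dixon's test, which chance passes in about 1 of 20 groups, and 5 passed. Hdac7 in control replicate 3 stood above the other controls at 0.535 CPM, which is 8 counts. Ncor1 in control replicate 3 was the highest control at 346 CPM, and Gps2 in control replicate 2 was the lowest at 29.9 CPM. Brms1l in tranilast replicate 4 was the lowest of its group at 36.5 CPM, and Sik3 in tranilast replicate 2 was the lowest at 85.8 CPM. Brms1l, Gps2 and Sik3 passed the test of tranilast against control in the same direction in 18 of 18 alternatives each, those without these samples included.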

How the results depend on the processing

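The numbers of members, partners and genes called, both directions together, stayed within 1.5 times of the reported ones in all 18 alternatives, and their split by direction moved with the scaling. With library size alone 4613 genes were higher and 1893 lower, 27 partners were higher and 28 lower, and 2 members were higher and 2 lower. With FPKM plus 1, 1660 genes, 25 partners and 2 members were lower, and 2 members were higher. With FPKM plus 0.1, 1663 genes, 25 partners and 2 members were lower, and 2 members were higher. With upper-quartile factors 2 members were higher. Tbl1xr1 turned to 0.077 with FPKM plus 0.1 and 0.073 with FPKM plus 1, and Phf21a to 0.032 and 0.029. The cause was not tested. Without 1 sample at a time 5693 to 5909 genes (2793 to 2912 higher, 2866 to 3019 lower), 52 to 55 partners (12 to 14 higher, 39 to 42 lower) and in each case 5 members (1 higher, 4 lower) were called. Of 144 member values under the alternatives, 125 differed from the reported value by less than the spread between replicates and 19 by more, and of 773 values of named partners 737 kept their direction and their side of the threshold. Rcor1, Sap18, Mark2 and Klf2 did not pass the test with FPKM, and Rcor1 and Klf2 also not with library size alone.

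Samples with the same replicate number did not deviate together (correlations -0.057, -0.041, 0.006 and 0.103, and 0 of 4 controls correlated best with their own number). No pairing by number was therefore seen, which does not exclude a pairing in the design. With the replicate number as a block 6009 genes, 56 partners and 5 members were called. The count of members at or above 1 FPKM was 8, and 8 were at or above 1 CPM per kb of exons. Depth limits Hdac7 and Hdac11, whose counts lie near the limit of 3.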

Other observations

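The lysine acetyltransferases, which add the acetyl groups that histone deacetylases remove, moved in both directions. Of 12 genes tested, 2 rose and 5 fell, with a median log2 fold change of -0.03, at an adjusted p under 0.05 from edgeR. Ncoa1 rose by 0.38 and Kat6b by 0.32, and Ep300 fell by 0.36 (adjusted p = 2.4e-08 from edgeR) and Ncoa3 by 0.25. The close relative of Ep300, Crebbp, which lies outside the rule for named genes and was picked after its values were seen, was at 92.1 ± 3.51 and 91.9 ± 5.20 CPM (SD, n = 4 each). On library size alone, 4 acetyltransferases rose and 3 fell.

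Of the BET bromodomain readers, which bind acetylated histones, Brd2 rose by 0.21 (adjusted p = 4e-06 from edgeR) and Brd3 by 0.11 (adjusted p = 0.021 from edgeR, not passed without control replicate 1). Twist1, the neighbour of Hdac9 on chromosome 12, had 0 counts in all 8 libraries.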
